A study of Mus musculus with 44 samples.

Results

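The nuclear-encoded respiratory chain genes examined here are 52 of the 55416 genes in the count tables. They encode subunits of respiratory complexes I to IV and the electron carrier cytochrome c, and were taken as the table entries whose Ensembl identifier carried a symbol on the member list. Of these, 27 encode subunits of complex I, 4 of complex II, 9 of complex III and 11 of complex IV, and 1, Cycs, encodes cytochrome c. Ndufa4, named after complex I, was counted with complex IV, where its protein is known to sit. Cox4i1, a core-associated subunit of complex IV, was listed at 0 reads in all 44 libraries and could not be tested. Gm20388, a gene that overlaps Cox4i1 on the same strand, had 78 to 425 reads per library. The other 51 members passed the filter on low counts in each of the 3 tissues. Their lowest count in any library was 110 reads in small intestine, 56 in liver and 50 in brain, so no member passed only through the group in which it was higher.

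The mice were C57BL/6J, about 2 months old, and carried no allele named in the labels. Of 15 animals, 8 (3 females and 5 males) were given manganese (Mn) each day as about 50 mg of MnCl2·4H2O per kg, and 7 (3 females and 4 males) were given vehicle. The labels state neither the route nor the number of days. RNA came from total homogenates of small intestine (7 Mn and 7 vehicle libraries), liver (8 and 7) and brain (8 and 7), mostly from the same animals, and was read as 3′ tags, short reads from the end of each transcript. For the fits, the animal numbers were grouped into 2 runs, which the labels do not mark. The grouping was added after the data had been seen. In the first, 2575 to 2578 received Mn and 2572 to 2574 vehicle. In the second, 2600 to 2603 received Mn and 2627 to 2630 vehicle, with a gap in the numbers between. The second run thus joins a block of Mn numbers to a separate block of vehicle numbers. The labels do not say what the numbers stand for, and within each run the Mn and vehicle animals hold separate number ranges, so anything tied to those ranges cannot be told apart from treatment.

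The respiratory chain passes electrons from NADH (complex I) and succinate (complex II) through complex III and cytochrome c to oxygen at complex IV, and pumps protons that drive ATP synthesis. A few core subunits are encoded by the mitochondrial genome, and all the rest, including every subunit of complex II, are encoded in the nucleus, translated in the cytosol and imported. Nuclear factors of the NRF, ETS and ERR families are known regulators of many of these genes. Liver and brain both have a high demand for oxidative phosphorylation, and mitochondria are known to take up Mn.

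Libraries held 1796385 to 3798810 reads assigned to genes, and the members took 1.35% to 2.40% of them. Markers of the labelled tissue were high in every library: hepatocyte markers summed to 83681 to 93220 CPM (reads per gene scaled to library size) in Mn livers and 75409 to 91375 CPM in vehicle livers, and neuron markers to 6491 to 7439 CPM in Mn brains and 6455 to 6838 CPM in vehicle brains. Some libraries stood apart. In 7 of the 8 Mn brains, all but animal 2575, hepatocyte markers summed to 379 to 5897 CPM and enterocyte markers to 25.6 to 1016 CPM, against 82.8 and 11.7 CPM in animal 2575, and 54.5 to 575 and 7.53 to 14.8 CPM in vehicle brains. The livers of 5 males (Mn 2601, 2602 and 2603, vehicle 2627 and 2630) had neuron markers at 123 to 289 CPM, against 34.5 to 72.2 CPM in the other livers. The vehicle intestine of animal 2627 held pancreatic acinar markers at 12091 CPM, against 18.6 to 119 CPM in the other intestines. The intestines of 4 males (Mn 2602 and 2603, vehicle 2627 and 2630) had neuron markers at 156 to 165 CPM, against 37.4 to 77.2 CPM in the other intestines. All 4 Mn brains of animals 2600 to 2630 are among the 7, so no result within that run of brains, nor the difference between runs in brain, can be given without them.

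In liver, respiratory chain transcripts were slightly higher in Mn mice across all 4 complexes. Genes were called at an adjusted p under 0.05 (edgeR's quasi-likelihood test with sex as a covariate, Benjamini-Hochberg adjustment over all genes tested in the tissue). By that rule 4 of 51 members rose with Mn, namely Cox7c, Uqcrb, Sdhd and Cox5b, and 0 fell. Over all 10536 genes tested in liver, 0.484% were called higher and 0.683% lower. The members' median log2 ratio of Mn to vehicle was 0.19, and 49 of 51 log2 ratios were above 0, against a median of -0.02 and a share above 0 of 46.7% over all genes. At an unadjusted p under 0.05, 34 members were higher and 0 lower, against 8.42% and 9.58% of all genes. The samples are homogenates, so a larger share of hepatocytes and more of these transcripts per cell cannot be told apart.

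The 4 genes that rose belong to complexes II, III and IV. Cox7c (ENSMUSG00000017778.15) encodes a small membrane-spanning subunit of complex IV. It ranged from 155.7 to 216 CPM (median 191) in the 8 Mn livers and from 117 to 167 CPM (median 151) in the 7 vehicle livers. Only the Mn liver of animal 2600 lay within the vehicle range. Cox7c shares its 3′ end with 4 other genes, Uqcrb with 3 and Cox5b with 1, so their reads could be split or lost between copies, while Sdhd shares its end with none. The means were 191 ± 20.1 CPM with Mn and 144 ± 17.9 CPM with vehicle (SD, n = 8 and 7), a log2 ratio of 0.39 ± 0.08 (SE) with an adjusted p of 0.0361. Cox5b (ENSMUSG00000061518.12), which encodes a matrix-facing subunit of complex IV that binds zinc, ranged from 492 to 738 CPM (median 627) in Mn livers and from 354 to 616 CPM (median 461) in vehicle livers. Its groups overlapped, with 6 of 8 Mn livers above the highest vehicle liver. The log2 ratio of Cox5b was 0.37 ± 0.09 (SE), with an adjusted p of 0.0458 in the edgeR test.

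Uqcrb (ENSMUSG00000021520.5) encodes a subunit of complex III close to the site where ubiquinone binds. It had 216 to 289.8 CPM (median 266) in Mn livers, against 189 to 227 CPM (median 215) in vehicle livers. The Mn liver of animal 2600 again lay within the vehicle range, and the other 7 lay above it. Its log2 ratio was 0.33 ± 0.08 (SE), with an adjusted p of 0.0424 in the edgeR test. Sdhd (ENSMUSG00000000171.6) encodes a membrane anchor of complex II, succinate dehydrogenase. It had 189 to 236 CPM (median 205) in Mn livers, against 150.1 to 185 CPM (median 165) in vehicle livers. Every Mn liver lay above every vehicle liver for Sdhd, which held for 0.0949% of all genes tested in liver. The log2 ratio of Sdhd was 0.31 ± 0.07 (SE), with an adjusted p of 0.0431 in the edgeR test.

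**Figure D1:**
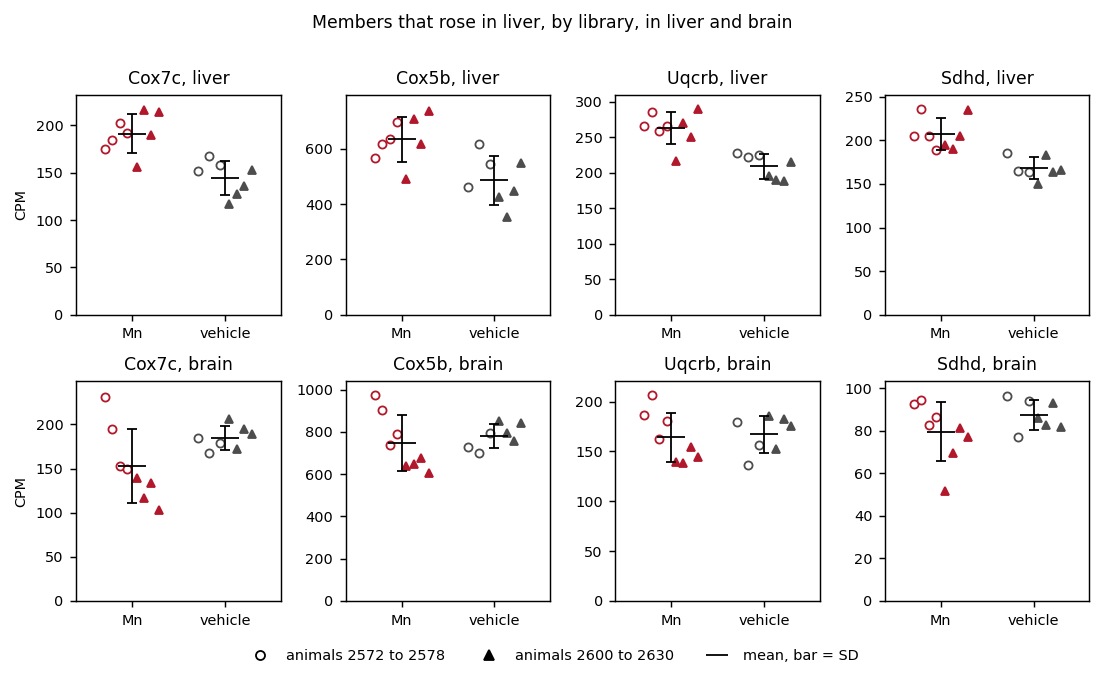
CPM per library of the 4 members that rose in Mn livers, in liver (top row) and brain (bottom row), Mn left of vehicle in each panel. Open circles are animals 2572 to 2578, triangles animals 2600 to 2630, and the bar is the mean with its SD. In liver the mean is higher with Mn for each gene. In brain the triangles of Cox7c, Cox5b and Sdhd lie lower with Mn than with vehicle without overlap, while the open circles overlap.

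The promoters of 3 of the 4 genes that rose in liver are given, so that the sequence upstream of each can be read beside its change. They run from 250 bases before to 50 bases after the transcript start, 5′ to 3′ on the gene's strand, from RefSeq on GRCm38.p6, and capitals mark a motif of the ETS family (CCGGAAG, or CTTCCGG on the other strand) or of estrogen-related receptors (AAGGTCA, or TGACCTT). Cox7c lies at chr13:86046746-86047045 on the minus strand, Cox5b at chr1:36691237-36691536 on the plus strand and Sdhd at chr9:50603800-50604099 on the minus strand.
Cox7c: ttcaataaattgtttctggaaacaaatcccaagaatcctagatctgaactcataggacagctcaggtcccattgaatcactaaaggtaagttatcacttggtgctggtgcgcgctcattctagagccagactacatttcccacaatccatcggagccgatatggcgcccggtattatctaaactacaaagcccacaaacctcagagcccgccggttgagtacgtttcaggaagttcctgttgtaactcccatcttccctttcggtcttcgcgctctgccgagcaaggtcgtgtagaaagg
Cox5b: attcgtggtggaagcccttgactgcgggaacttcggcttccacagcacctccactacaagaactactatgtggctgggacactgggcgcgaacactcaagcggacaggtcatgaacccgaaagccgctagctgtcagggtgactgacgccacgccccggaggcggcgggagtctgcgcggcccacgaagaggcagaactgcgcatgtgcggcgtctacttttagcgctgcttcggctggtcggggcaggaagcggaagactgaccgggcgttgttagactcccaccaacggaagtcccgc
Sdhd: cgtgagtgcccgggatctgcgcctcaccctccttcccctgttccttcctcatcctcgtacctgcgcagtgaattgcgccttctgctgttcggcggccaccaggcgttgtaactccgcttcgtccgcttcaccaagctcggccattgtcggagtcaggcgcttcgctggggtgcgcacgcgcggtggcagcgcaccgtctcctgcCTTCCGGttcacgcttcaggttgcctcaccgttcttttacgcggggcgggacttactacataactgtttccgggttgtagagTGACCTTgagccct
Only the Sdhd window held a searched motif, with the ETS core and the receptor motif both on the strand opposite to the gene. Of the 52 members, 42 had a promoter entry, and Uqcrb was among the 10 without one. The ETS core stood on either strand in 10 of the 42 windows (23.8%), against 12.95% of the windows of 17492 protein-coding genes. The NRF1 motif (GCGCA followed by TGCGC) stood in 2 windows (4.8% against 1.47%), those of Cox6a1 and Uqcrc1, and the YY1 motif AAGATGGCG in 5 (11.9% against 2.14%). The receptor motif stood in 2 windows (4.8% against 4.73%), those of Ndufb2 and Sdhd. A match describes these letters only.

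By complex, the liver counts at an unadjusted p under 0.05 were 15 of 27 members of complex I, 3 of 4 of complex II, 6 of 9 of complex III and 10 of 10 of complex IV, all of them higher with Mn. The medians of the log2 ratio were 0.19 for complexes I and II, 0.23 for complex III and 0.24 for complex IV. Complex IV members summed to 5341 ± 620 CPM in Mn livers and 4451 ± 550 CPM in vehicle livers (SD, n = 8 and 7), a ratio of 1.20. Complex I members summed to 6790 ± 666 CPM with Mn and 5925 ± 628 CPM with vehicle, a ratio of 1.15. Complex II summed to 1446 ± 118 CPM with Mn and 1272 ± 73.1 CPM with vehicle, and 7 of 8 Mn livers exceeded every vehicle liver. Complex III summed to 4356 ± 499.8 CPM with Mn and 3744 ± 389 CPM with vehicle, with 4 of 8 Mn livers above every vehicle liver. Each sum overlapped between groups.

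The other members named in liver did not pass the adjusted threshold. Ndufb8, a membrane-arm subunit of complex I, had the smallest p of that complex, with 121 to 205 CPM (median 152) in Mn livers and 89.7 to 147 CPM (median 117) in vehicle livers, a log2 ratio of 0.43 ± 0.11 (SE) and an adjusted p of 0.0669. Ndufa6, the complex I member with the highest CPM in liver, had 505 to 706 CPM (median 606) with Mn and 433 to 565 CPM (median 553) with vehicle, with an adjusted p of 0.237. Cox8a had a log2 ratio of 0.25 (adjusted p 0.0857), Sdha, the flavoprotein of complex II, 0.17 (0.219) and Uqcrq of complex III 0.15 (0.3255) in the same edgeR fit. Cytochrome c stood at 42.0 ± 6.47 CPM with Mn and 40.3 ± 7.66 CPM with vehicle, a log2 ratio of 0.04 ± 0.10 (SE).

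**Figure D2:**
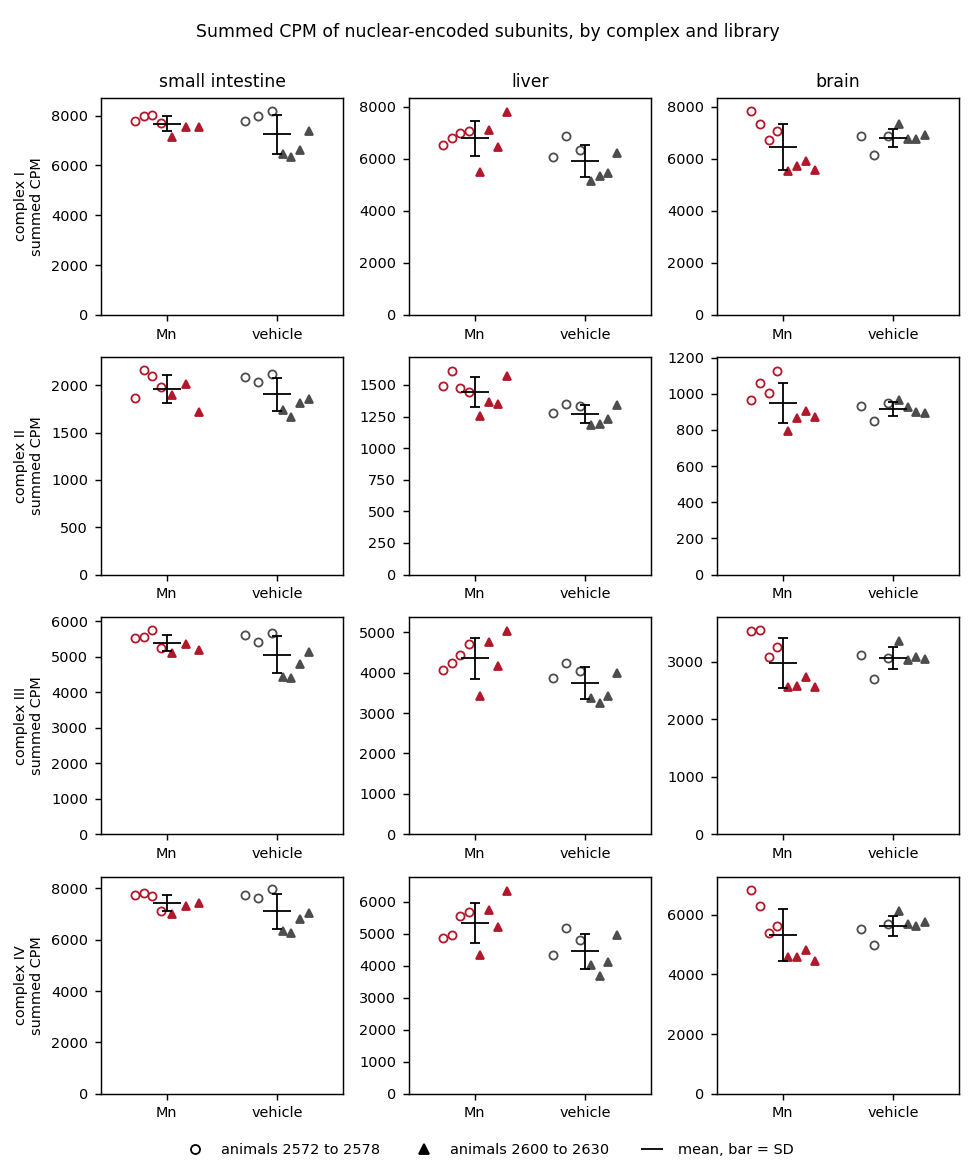
Summed CPM of the members of complexes I to IV (rows) per library in small intestine, liver and brain (columns), Mn left of vehicle. Open circles are animals 2572 to 2578, triangles animals 2600 to 2630, and the bar is the mean with its SD. In liver the mean sum is higher with Mn in every complex (ratios 1.14 to 1.20). In brain the triangles lie lower with Mn than with vehicle in complexes I, III and IV and overlap in complex II, while the open circles have higher means with Mn, overlapping in complexes I, III and IV and apart in complex II.

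The direction in liver held within each run of animals, although no member passed the adjusted threshold in either. Among animals 2572 to 2578, 44 of 51 members had a log2 ratio above 0 (median log2 0.14), against 49.9% of all genes. At an unadjusted p under 0.05, 14 were higher, against 6.33% of all genes, and 0 lower, and 0 were called in edgeR, against 0.684% called higher over all genes. Among animals 2600 to 2630, 50 of 51 were above 0 (median 0.26), against 49.9% of all genes. At an unadjusted p under 0.05, 16 were higher, against 5.69% of all genes, and 0 lower, and 0 were called in edgeR, against 0.00932% called higher over all genes. In animals 2572 to 2578 every Mn liver exceeded every vehicle liver for 16 of 51 members, against 5.01% of all genes, and in animals 2600 to 2630 for 5 of 51, against 2.91%. Cox7c had log2 ratios of 0.26 and 0.51 in the earlier and the later numbers, Cox5b 0.26 and 0.46, Uqcrb 0.25 and 0.36, and Sdhd 0.25 and 0.35. The difference between the runs was called for 0 members and for 0% of all genes in edgeR, with 0 members at an unadjusted p under 0.05.

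The 4 calls in liver depended on single libraries, on the covariates, on the filter and on the tool. DESeq2 called 13 members higher and 0 lower, against 2.35% and 1.75% of all genes. Further, edgeR with the run of animal numbers as a further covariate called 8 higher, against 1.13% of all genes, and edgeR without the sex covariate called 0, against 0.0190%. With no scaling the adjusted p of Sdhd was 0.0503. With no filter it was 0.0618, and Ndufb8 passed at 0.00822. When each liver library was left out in turn, between 0 and 13 members were called higher, and Cox7c and Cox5b passed in 4 of the 15 fits and Sdhd and Uqcrb in 3. The fit with 13, without Mn 2600, called 1.96% of all genes higher, and the fit without vehicle 2627, with 0, called 0.0941%. Without the 5 male livers with higher neuron markers, 0 members were called, against 0.0572% of all genes higher, and 15 were higher at an unadjusted p under 0.05, against 4.91%. The median log2 ratio was then 0.16. Within animals 2600 to 2630 this left Mn 2600 against vehicle 2628 and 2629, with a median log2 ratio of 0.07. With 1 Mn liver, the spread among Mn livers could not be measured there. Other cell types moved with treatment too, and their part in the members' change was not tested. Macrophage markers summed to 344 to 702 CPM in Mn livers and 388 to 951 CPM in vehicle livers (7 of 7 tested below a ratio of 1, median log2 -0.30), and erythroid markers to 203 to 509 CPM with Mn and 335 to 847 CPM with vehicle. Enterocyte markers summed to 250.3 to 675 CPM with Mn and 350.5 to 1494 CPM with vehicle (10 of 10 tested below a ratio of 1, median log2 -0.94). Of 17 hepatocyte markers tested, 1 was called higher and 0 lower, against 0.484% and 0.683% of all genes. Reads outside any gene made up 1.88% to 2.04% in Mn livers and 2.06% to 2.09% in vehicle livers of animals 2572 to 2578, and 1.84% to 2.26% with Mn and 2.30% to 2.58% with vehicle in animals 2600 to 2630, apart in both runs. Reads assigned to more than 1 gene were apart in animals 2600 to 2630, at 2.41% to 2.53% with Mn and 2.21% to 2.31% with vehicle. Neuron markers were apart in animals 2572 to 2578, at 36.4 to 46.5 CPM with Mn and 60.6 to 72.2 CPM with vehicle. Also apart in those livers were oligodendrocyte markers (16.2 to 25.0 CPM with Mn, 57.5 to 66.2 CPM with vehicle). Enterocyte markers were apart there too (502 to 598 CPM with Mn, 743 to 942 CPM with vehicle).

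**Figure D3:**
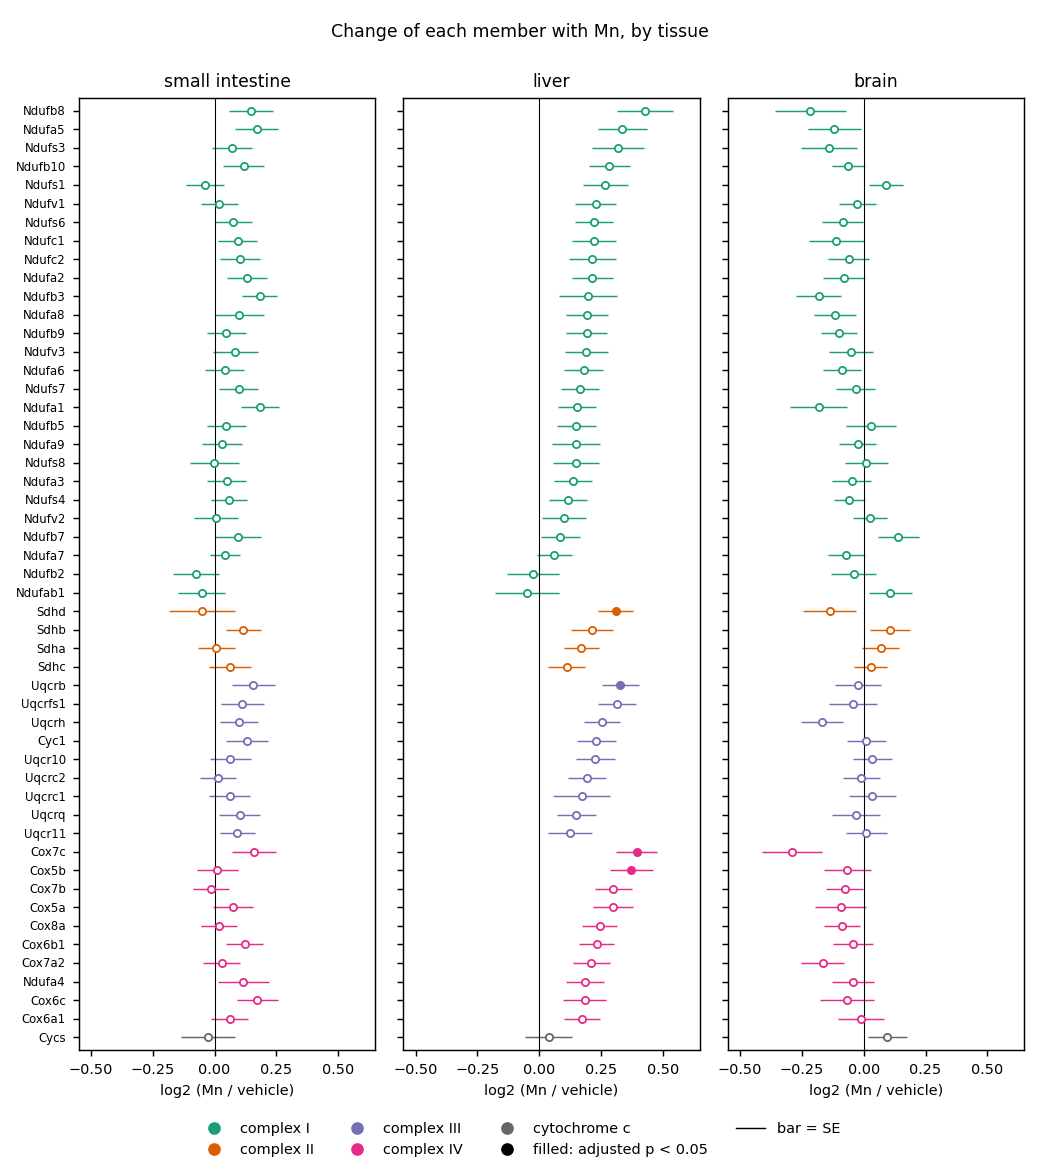
Log2 ratio of Mn to vehicle of the 51 tested members in small intestine, liver and brain, over all animals, with SE bars from edgeR. Colours mark the complex and filled points an adjusted p under 0.05. The 4 filled points, Cox7c, Uqcrb, Sdhd and Cox5b, are all in liver, where 49 of 51 log2 ratios lie above 0, against 44 of 51 in small intestine and 14 of 51 in brain.

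In brain, no member was called over all animals, and the effect of Mn on the members differed between the 2 runs of animal numbers. Over all animals edgeR called 0 of 51 members, against 0.559% of all genes called higher and 0.0155% lower, and DESeq2 also called 0. At an unadjusted p under 0.05 there was 1 member, Cox7c, lower with Mn and 0 higher, against 3.30% and 4.95% of all genes. The median log2 ratio of the members was -0.05, with 14 of 51 above 0, against 47.9% of all genes. Among animals 2572 to 2578, 47 of 51 members had a log2 ratio above 0 (median 0.14), against 50.2% of all genes. In edgeR 0 were called, against 0.452% of all genes called higher, and at an unadjusted p under 0.05 10 were higher, against 7.18% of all genes, and 0 lower. Among animals 2600 to 2630, 48 of 51 had a log2 ratio below 0 (median -0.26), while 51.7% of all genes were above 0, and 32 were called lower and 0 higher, against 5.06% and 7.38% of all 12914 genes tested. The difference itself was tested as the Mn effect in animals 2600 to 2630 minus that in animals 2572 to 2578. It was called below 0 for 33 of 51 members and above 0 for 0, against 4.45% and 8.58% of all genes. The fits by run, this difference among them, were not planned and were added after the data had been seen.

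The members called lower in animals 2600 to 2630 came from all 4 complexes. Of complex I, 15 of 27 members were called lower, of complex II 1 of 4 (Sdhd), of complex III 6 of 9 and of complex IV 10 of 10, while Cycs had a log2 ratio of 0.01. For 36 of 51 members all 4 Mn brains lay below all 4 vehicle brains, which held for 7.93% of all genes. In animals 2572 to 2578, all 4 Mn brains lay above all 3 vehicle brains for 14 of 51 members, against 6.55% of all genes.

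Ndufb8 showed the pattern in complex I. In Mn animals 2600 to 2603 it had 182, 194, 206 and 180.3 CPM, against 344, 257, 277 and 291 CPM in vehicle animals 2627 to 2630. In Mn animals 2575 to 2578 it had 368, 340.3, 241 and 248 CPM, against 286, 232 and 291.5 CPM in vehicle animals 2572 to 2574. The groups of animals 2600 to 2630 did not overlap, and those of animals 2572 to 2578 did. Its log2 ratio was -0.65 ± 0.07 (SE) in animals 2600 to 2630, with an adjusted p of 2.5e-05, and 0.07 ± 0.12 in animals 2572 to 2578, and the difference of -0.72 ± 0.19 had an adjusted p of 0.0207 in edgeR.

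Ndufa1, which encodes a small membrane-arm subunit of complex I, had 364, 378, 398 and 396 CPM in Mn animals 2600 to 2603, against 597, 522, 509 and 563 CPM in vehicle animals 2627 to 2630. All 4 Mn brains lay below all 4 vehicle brains, with a log2 ratio of -0.53 ± 0.06 (SE) and an adjusted p of 1.3e-05 in edgeR. In Mn animals 2575 to 2578 the values were 638, 595, 483 and 514 CPM, against 566, 428 and 554 CPM in vehicle animals 2572 to 2574, where the groups overlapped. Ndufb3, another small subunit of the membrane arm, had a log2 ratio of -0.46 ± 0.07 in animals 2600 to 2630 and 0.06 ± 0.09 in animals 2572 to 2578. The difference was -0.60 for Ndufa1 (adjusted p 0.0135) and -0.53 for Ndufb3 (adjusted p 0.00693).

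In complex IV, Cox7c had 139, 117, 133.5 and 103 CPM in Mn animals 2600 to 2603, against 206, 172, 195 and 189 CPM in vehicle animals 2627 to 2630. It had 231, 194.5, 152.5 and 149.7 CPM in Mn animals 2575 to 2578, against 185, 167 and 179 CPM in vehicle animals 2572 to 2574. The groups of animals 2600 to 2630 were apart and those of animals 2572 to 2578 overlapped. The log2 ratios of Cox7c were -0.61 ± 0.09 (SE, adjusted p 0.00045) in animals 2600 to 2630 and -0.04 ± 0.11 in animals 2572 to 2578, a difference of -0.58 ± 0.17. Cox5b, which had risen in liver, had 637, 648, 677 and 604 CPM in Mn animals 2600 to 2603, against 852.5, 795, 754 and 840.0 CPM in vehicle animals 2627 to 2630, with an adjusted p of 0.00118 in edgeR. Its log2 ratio was -0.35 ± 0.06 in animals 2600 to 2630 and 0.16 ± 0.09 in animals 2572 to 2578.

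In complex III, Uqcrh, the hinge protein that contacts cytochrome c1, had 476, 495, 523 and 478 CPM in Mn animals 2600 to 2603, against 699, 635, 614 and 627 CPM in vehicle animals 2627 to 2630. Every Mn value lay below every vehicle value. Its log2 ratio was -0.39 ± 0.06 (SE), with an adjusted p of 0.000432 in edgeR, and the difference between runs was -0.41 ± 0.11. In complex II, Sdhd had 51.6, 69.8, 81.5 and 77.0 CPM in Mn animals 2600 to 2603, against 85.9, 82.9, 92.9 and 81.9 CPM in vehicle animals 2627 to 2630, with a log2 ratio of -0.35 ± 0.11 (SE) and an adjusted p of 0.048. Sdha, with a log2 ratio of -0.11 ± 0.06, and Sdhb, the iron-sulfur subunit, with -0.04 ± 0.07, did not pass in animals 2600 to 2630.

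The sums show the same order of libraries. In animals 2600 to 2630 the members of complex IV averaged 4609 CPM in Mn brains and 5798 CPM in vehicle brains, and those of complex I 5687 CPM with Mn and 6929 CPM with vehicle. In animals 2572 to 2578 complex IV averaged 6030 CPM with Mn (n = 4) and 5395 CPM with vehicle (n = 3), and complex I 7231 CPM with Mn and 6626 CPM with vehicle. Complex II averaged 860 CPM with Mn and 923 CPM with vehicle in animals 2600 to 2630.

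**Figure D4:**
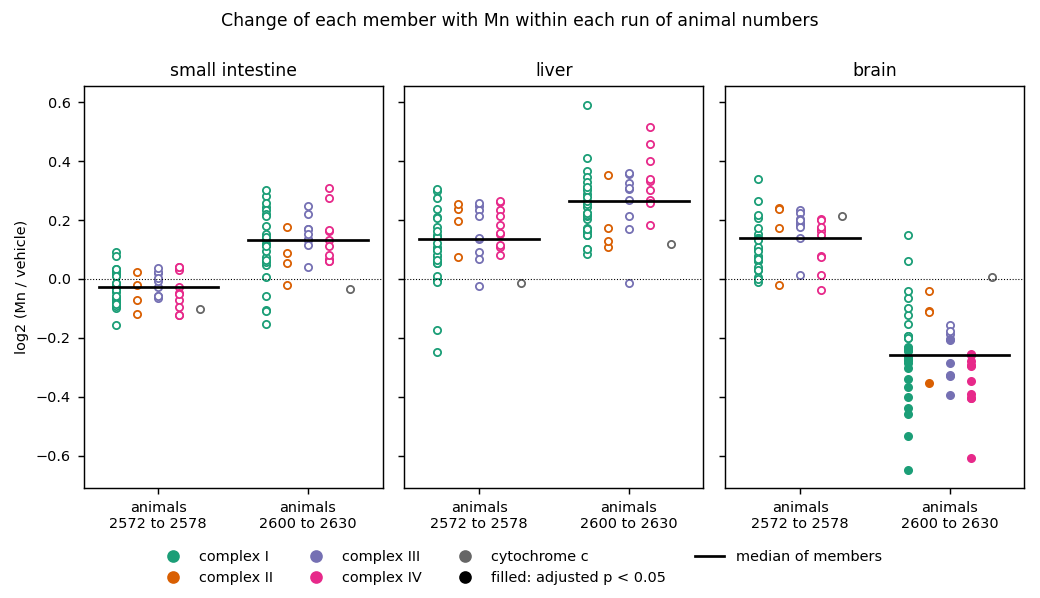
Log2 ratio of Mn to vehicle of each of the 51 tested members within animals 2572 to 2578 and within animals 2600 to 2630, for small intestine, liver and brain, with a black line at the median. Colours mark the complex and filled points an adjusted p under 0.05 within that run. In brain the median is 0.14 in animals 2572 to 2578 and -0.26 in animals 2600 to 2630. In liver both medians are above 0 (0.14 and 0.26), and in small intestine they are -0.03 and 0.13.

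Several other measures moved with the members in the brains of animals 2600 to 2630, and their part was not tested. Reads assigned to genes numbered 2674059 to 3798810 in those Mn brains and 1907393 to 2648179 in the vehicle brains, without overlap. Genes of cytosolic ribosomal proteins took 1.67% to 1.69% of reads in those Mn brains and 2.08% to 2.30% in the vehicle brains. Of 79 tested, 49 were called lower and 1 higher, against 5.06% and 7.38% of all genes. Reads outside any gene made up 3.90% to 4.14% with Mn and 3.49% to 3.88% with vehicle, and in animals 2572 to 2578 they made up 2.96% to 3.31% with Mn and 3.48% to 4.10% with vehicle, apart in both runs and in opposite directions. Hepatocyte markers summed to 379 to 2629 CPM with Mn and 54.5 to 575 CPM with vehicle. In animals 2572 to 2578, where the members' median was above 0, hepatocyte markers also differed, with 82.8 to 5897 CPM in Mn brains and 62.4 to 93.2 CPM in vehicle brains. Apart in that run were also reads of the mitochondrial genome (8.33% to 9.98% with Mn, 7.87% to 8.18% with vehicle), neuron markers (6872 to 7439 CPM with Mn, 6455 to 6731 CPM with vehicle) and oligodendrocyte markers (7835 to 9375 CPM with Mn, 6704 to 7318 CPM with vehicle).

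The brain calls moved with single libraries. Leaving out each brain library of animals 2600 to 2630 in turn gave 19 members called lower without vehicle 2627, against 1.97% of all genes, to 37 without vehicle 2630, against 6.71%. Of the 33 members called for the difference between runs, 14 were also called without Mn 2600, 18 without vehicle 2627 and 19 without vehicle 2573, where 1.40%, 1.85% and 1.52% of all genes were called below 0. Without the 7 Mn brains that held liver and gut markers, 1 Mn brain (animal 2575) was left, assumed to vary like the vehicle brains. Against the 7 vehicle brains it gave a median log2 ratio of 0.20, with 49 of 51 members above 0, against 48.0% of all genes. In that fit 14 members were higher and 1 lower at an unadjusted p under 0.05, against 4.92% and 5.67% of all genes, and 0 were called in edgeR, against 0.0147%.

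In small intestine, no member was called between Mn and vehicle mice. edgeR called 0 of 51 members, against 0.340% of all genes called higher and 0.119% lower, DESeq2 called 0, and 2 members were higher and 0 lower at an unadjusted p under 0.05, against 6.10% and 6.13% of all genes. The median log2 ratio was 0.07, with 44 of 51 above 0, against 47.7% of all genes. Both members at an unadjusted p under 0.05 were subunits of complex I. Ndufb3 had 238 to 281 CPM (median 272) in Mn intestines and 206 to 259 CPM (median 233) in vehicle intestines, and 6 of 7 Mn libraries exceeded every vehicle library. Its log2 ratio of 0.18 ± 0.07 (SE) had an adjusted p of 0.289. Ndufa1 had 575 to 735 CPM (median 649.9) with Mn and 490.5 to 644 CPM (median 601) with vehicle, with an adjusted p of 0.331.

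For the other complexes in small intestine, Cox6c had a log2 ratio of 0.17 (adjusted p 0.413), Uqcrb 0.16 (0.508) and Sdhb 0.12 (0.546), while Cox8a stood at 0.02, Sdha at 0.01 and Cycs at -0.03. All 9 tested members of complex III had a log2 ratio above 0, with a median of 0.10, and the medians of complexes I, II and IV were 0.07, 0.04 and 0.07. Within animals 2572 to 2578 the members' median was -0.03, with 18 of 51 above 0, against 49.1% of all genes. Within animals 2600 to 2630 it was 0.13, with 45 of 51 above 0, against 48.2% of all genes, and 8 higher at an unadjusted p under 0.05, against 7.10%. Every Mn intestine exceeded every vehicle intestine for 10 of 51 members in animals 2600 to 2630, against 6.96% of all genes, and for 1 of 51 in animals 2572 to 2578, against 3.85%. The difference between the runs was called for 0 members and for 0% of all genes in edgeR. Enterocyte markers summed to 19160 to 25686 CPM with Mn and 16145 to 20565 CPM with vehicle (12 of 12 above a ratio of 1, 0 called). In animals 2600 to 2630 they were apart, at 19687 to 22763 CPM with Mn and 16145 to 18880 CPM with vehicle. Also apart there were macrophage markers (289 to 337 CPM with Mn, 414 to 454 CPM with vehicle) and acinar markers (18.6 to 52.6 CPM with Mn, 77.4 to 12091 CPM with vehicle). In animals 2572 to 2578 each of these overlapped. Neuron markers were apart in that run, at 51.2 to 63.3 CPM with Mn and 37.4 to 50.9 CPM with vehicle. The part of these markers in the members' change was not tested. Without the vehicle intestine of animal 2627, which held the acinar markers, the members' median log2 ratio was 0.05, against 0.07 with it. Without the 4 males with higher neuron markers, 0 members were called in edgeR. In that fit 44 of 51 were above 0, against 49.3% of all genes, and the median was 0.06.

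Whether the Mn effect differed between tissues was tested in a fit over all 44 libraries and 14984 genes. The effect in liver minus that in brain was called above 0 for 4 of 51 members and below 0 for 0, against 0.561% and 5.21% of all genes. These were Cox7c (0.66 ± 0.15 on the log2 scale, SE, adjusted p 0.00303), Ndufb8 (0.62 ± 0.18, 0.0284), Uqcrh (0.40 ± 0.12, 0.0371) and Cox7b (0.36 ± 0.11, 0.0487). With the animal as a block, 4 members were called and 3 of them were the same, Cox7b dropping out at an adjusted p of 0.0619 and Cox5b coming in. The members' median difference was 0.23, against -0.12 over all genes. Without the 7 Mn brains that held liver and gut markers, 0 members and 0% of all genes were called, the median was 0.06 for the members and 0.03 over all genes, and Cox7c stood at 0.11, Ndufb8 at 0.04, Uqcrh at 0.17 and Cox7b at 0.08. Without the 5 male livers, Cox7c alone was called (0.56, adjusted p 0.0340), against 0.177% of all genes called higher.

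Fitted by run, liver minus brain was called for members in the later animal numbers and not in the earlier ones. Both runs are part of the 44 libraries, so the later run gives no separate finding of the calls above. Within animals 2600 to 2630, 18 members were called above 0, against 1.81% of all genes, and the median was 0.47. Within animals 2572 to 2578, 0 were called, against 0.471% of all genes, and the median was 0.02. For Cox7c the difference was 1.06 in animals 2600 to 2630 and 0.31 in animals 2572 to 2578, and for Ndufb8 1.18 and 0.18. Small intestine minus brain was called for 0 members, against 3.83% of all genes called in either direction, with Cox7c at 0.40 (adjusted p 0.177), and small intestine minus liver for 0 members, against 0.0734% of all genes called in either direction, with Cox7b at -0.34 (adjusted p 0.248), Ndufs1 at -0.33 (0.293) and Cox5b at -0.38 (0.328). At an unadjusted p under 0.05, 3 members were higher and 0 lower for small intestine minus brain, against 1.37% of all genes higher, and 0 higher and 5 lower for small intestine minus liver, against 4.32% of all genes lower. Whether the tissue differences themselves differed between the runs was not tested.

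The Mn effect was not called different between females and males for any member. The test of female minus male effect in edgeR called 0 members in small intestine, liver and brain, against 0, 4 and 8 of all genes (0%, 0.0380% and 0.0622%). At an unadjusted p under 0.05 there was 1 member in small intestine, 0 in liver and 3 in brain, of which 2 were higher and 1 lower, against 2.75%, 6.36% and 5.52% of all genes. With 3 females in each treatment group, small differences were not detectable. The sexes were also not spread evenly over the 2 runs of animal numbers, and this test had no term for the run. In brain, where the Mn effect differed between runs, the comparison of sexes is therefore mixed with the run.

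Other genes of mitochondrial function were followed beside the members. In liver, 15 of 16 tested nuclear subunits of ATP synthase (complex V) had a log2 ratio above 0, against 46.7% of all genes, with a median log2 ratio of 0.22. Of the 16, 11 were higher at an unadjusted p under 0.05, against 8.42% of all genes. In edgeR 0 were called, against 0.484% of all genes called higher and 0.683% lower. The smallest p was that of Atp5g1, which encodes the proton-carrying c subunit, at 513 ± 47.7 CPM in Mn livers and 416 ± 28.2 CPM in vehicle livers (SD, n = 8 and 7; log2 ratio 0.30, adjusted p 0.0511).

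Of 14 citric acid cycle enzymes, Idh2, the mitochondrial NADP-dependent isocitrate dehydrogenase, rose in liver to 178 ± 42.7 CPM with Mn, against 131 ± 24.7 CPM with vehicle (log2 ratio 0.46, adjusted p 0.0150), and 0 fell. Of 70 mitochondrial ribosomal proteins, Mrpl46, Mrps21 and Mrps35 rose and 0 fell, with a median log2 ratio of 0.13. Over all genes tested in liver, 0.484% were called higher and 0.683% lower. Mrpl46 stood at 47.0 ± 5.74 CPM in Mn livers and 32.8 ± 3.46 CPM in vehicle livers. The lists with 0 calls in liver were the 42 assembly factors (median 0.08), the 14 genes of iron-sulfur cluster assembly (0.13), the 13 regulators of mitochondrial biogenesis (0.04) and the 8 tested genes of the mitochondrial genome (0.09). Of 78 cytosolic ribosomal protein genes, 1 rose and 5 fell in liver (median 0.07), against 0.484% and 0.683% of all genes. Sod2, the Mn-containing superoxide dismutase of the mitochondrial matrix, had 292 ± 27.2 CPM in Mn livers and 252 ± 31.7 CPM in vehicle livers, with a log2 ratio of 0.21 and an adjusted p of 0.197 in edgeR. In small intestine and in brain its log2 ratio was 0.02.

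In small intestine and brain, edgeR called 0 genes of these lists over all animals. In the brains of animals 2600 to 2630, 7 of 16 nuclear complex V subunits and 16 of 71 mitochondrial ribosomal proteins were called lower and 0 higher. Over all genes 5.06% were called lower and 7.38% higher. The medians of the 2 lists were -0.19 and -0.22. Of the 8 tested genes of the mitochondrial genome, 2 were called lower and 0 higher, with a median of -0.02. Of 14 citric acid cycle enzymes 1 was lower and 0 higher, against the same shares of all genes. In animals 2572 to 2578 the medians in brain were 0.15 for complex V, 0.08 for the mitochondrial ribosomal proteins and -0.03 for the cytosolic ribosomal proteins, against -0.31 for the cytosolic ones in animals 2600 to 2630.

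Between tissues of vehicle mice, the order of the members' levels differed from gene to gene. Sdhd had 273 to 362 CPM (median 295) in small intestine, 150.1 to 185 CPM (median 165) in liver and 77.2 to 96.2 CPM (median 85.9) in brain (n = 7 each), and none of the 3 ranges overlapped. Cycs had 115 to 172 CPM (median 148) in small intestine, 33.2 to 55.1 CPM (median 38.0) in liver and 41.0 to 59.1 CPM (median 49.7) in brain. Small intestine stood above the other tissues for Cycs, while liver and brain overlapped. These CPM are scaled within each tissue, and in the fit of all libraries Cycs was 0.55 (log2) higher in liver than in brain with TMM scaling and -0.31, or lower, with plain library totals. Uqcrq of complex III had 722 to 971 CPM (median 912) in small intestine, 897 to 1175 CPM (median 1079.6) in liver and 464 to 585 CPM (median 548) in brain, lowest in brain. Ndufb8 went the other way, with 148 to 208 CPM (median 170.1) in small intestine, 89.7 to 147 CPM (median 117) in liver and 232 to 344 CPM (median 286) in brain, highest in brain without overlap.

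The tissue contrasts depended on how libraries were scaled. With TMM scaling (trimmed mean of M-values, which allows for a few genes taking a large share of reads), 47 of 51 members were called higher and 1 lower in small intestine over brain, against 44.3% and 40.3% of all genes. In liver over brain 46 were higher and 1 lower, where 83.4% of all genes were called in either direction and 39.5% lower, and in small intestine over liver 13 were higher and 15 lower, against 34.3% and 33.7%. With plain library totals 30 were higher and 3 lower in small intestine over brain, against 36.0% and 49.0% of all genes. In liver over brain 12 were higher and 24 lower, against 26.4% and 59.5%, and in small intestine over liver 41 were higher and 2 lower, against 51.9% and 20.6%. The median log2 ratio of all genes itself shifted, being 0.11 with TMM and -0.74 with plain totals in liver over brain, 0.09 and -0.26 in small intestine over brain, and 0.01 and 0.50 in small intestine over liver. Relative to that median, the members' median was 0.58 with TMM and 0.57 with plain totals in liver over brain, 0.56 and 0.55 in small intestine over brain, and 0.03 and 0.05 in small intestine over liver.

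By gene, Sdhd of complex II was 2.21 ± 0.12 (log2, SE) higher in small intestine than in brain and 1.83 ± 0.12 higher in liver than in brain, or 1.85 and 0.97 with plain totals. Sdhb was 1.66 ± 0.09 and 1.62 ± 0.09 higher in the same contrasts, or 1.30 and 0.77. Cycs was 1.95 ± 0.11 higher in small intestine than in brain and 1.40 ± 0.11 higher than in liver, or 1.59 and 1.90. With TMM, Ndufb8 was the 1 member called lower than in brain in both tissues, by -0.33 ± 0.13 in small intestine and -0.46 ± 0.13 in liver. With plain totals it stood at -0.69 and -1.32, and 3 and 24 members were called lower in the 2 contrasts. Within animals 2572 to 2578 the small intestine difference of Ndufb8 with TMM was -0.15 and not called (adjusted p 0.237 in edgeR). In small intestine over liver, Uqcrc1 (0.64 ± 0.11) and Cox7b (0.49 ± 0.08) were higher under either scaling. In the same contrast Uqcrq (-0.77 ± 0.10), Ndufa4 (-0.70 ± 0.10) and Ndufa7 (-0.59 ± 0.07) were lower, and with plain totals they stood at -0.27, -0.21 and -0.09, the last no longer called.

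**Figure D5:**
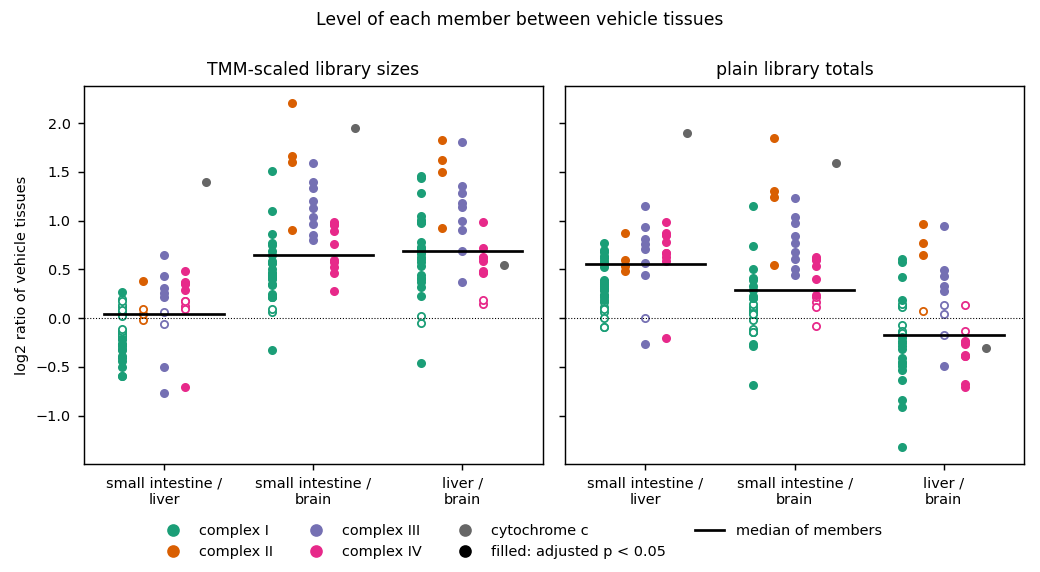
Log2 ratio of each of the 51 tested members between vehicle tissues, with TMM scaling (left) and plain library totals (right), points coloured by complex and filled at an adjusted p under 0.05, with a line at the median. The members' medians are 0.05, 0.65 and 0.69 with TMM for small intestine over liver, small intestine over brain and liver over brain, and 0.55, 0.29 and -0.17 with plain totals.

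Shared sequence limits the counting of some members. Over their last 300 bases, 14 of the 52 members match another annotated gene at 95% identity or more over at least 100 bases, and 21 overlap another gene on either strand, 6 of them on the same strand. In liver the median log2 ratio of Mn to vehicle was 0.24 for the 14 members with such a copy and 0.19 for the 37 tested members without one. In brain the medians were -0.08 and -0.04, and in small intestine 0.08 and 0.06. The sources used here do not state whether reads were counted by strand.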

How the data were processed

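RNA from total homogenates of small intestine, liver and brain of 15 mice was read as 3′ tags. The authors deposited whole-number counts of reads per gene for each of the 44 libraries. The genome build GRCm39 is named in the submitters' processing notes, with HTSeq 0.2.0, DESeq2 1.12.3, STAR 2.7.10b, R 4.2.2 and FastQC 0.12.0 as tools. The sources used here do not state whether reads were collapsed by molecular identifier or counted by strand. The counts were used as deposited, without the 5 summary entries and the 92 spike-in entries (4 reads in all). Symbols were matched for 52083 of 55416 identifiers, and promoters come from RefSeq on GRCm38.p6.

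Each tissue was fitted in R 4.3.3 with edgeR 4.0.16 (TMM scaling, filterByExpr with a minimum count of 10 and a total of 15, quasi-likelihood test, sex as a covariate, Benjamini-Hochberg adjustment over all genes tested, threshold 0.05). CPM use the TMM-scaled library size of the tissue's own fit. Differences between tissues came from 1 fit of all 44 libraries with sex within tissue. Scripts were tested on simulated counts. Alternatives were DESeq2 1.42.0, other scaling and filters, other covariates, single sexes, libraries left out and, for the 44 libraries, a replicate block by animal. The fits by run of animal numbers, and those of several tissues or of small intestine without the libraries that held markers of other tissues, were added after the data had been seen. Replicates are separate mice, and the animal number pairs the tissues because the same animals gave them. Deviations from group means correlated between tissues of an animal with a median r of 0.192 for small intestine and liver, 0.0451 for small intestine and brain and 0.0645 for liver and brain, over 14984 genes. No 2 libraries agreed within sampling noise. Counts of 1796385 to 3798810 reads per library limit the precision of low genes.

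The members and gene lists were chosen with earlier results of these data known. Named genes are the called members, the member of each complex with the smallest p and that with the highest mean CPM per tissue, up to 3 called members in each direction per tissue contrast, up to 5 called members per interaction (or the 3 smallest p), and for other lists up to 3 called genes or the smallest p. Other members named for the difference between runs are named by the same rule in another tissue or contrast. No comparison was left out, and the list of further subunits of complexes I to IV is not reported here.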

Additional observations from a re-analysis of the deposited data

Results flagged for a closer look

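The effect of Mn in liver minus that in brain passed the adjusted threshold for Cox7c (0.660 on the log2 scale), Ndufb8 (0.622), Uqcrh (0.401) and Cox7b (0.356), all in edgeR. In each, the ratio of Mn to vehicle was above 1 in liver and below 1 in brain over all animals. Without the 7 Mn brains that held liver and gut markers, 0 of these 4 were called.

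In brain, the effect of Mn differed between the 2 runs of animal numbers, given as animals 2600 to 2630 minus animals 2572 to 2578 on the log2 scale. The comparison of runs was added after the data had been seen. In complex I the difference was -0.724 for Ndufb8, -0.598 for Ndufa1, -0.525 for Ndufb3 and -0.405 for Ndufa6. In complex II it was -0.354 for Sdha. In complex III it was -0.524 for Uqcrq, -0.469 for Uqcrb and -0.409 for Uqcrh. In complex IV it was -0.601 for Cox6c, -0.585 for Cox7c, -0.518 for Cox5b and -0.359 for Cox8a. What the animal numbers stand for is not given, and within each run Mn and vehicle hold separate numbers, so number range and treatment cannot be told apart there.

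Single libraries stood far from the rest of their group for 2 of 84 groups, where chance gives about 1 in 20. The groups were the CPM of named genes and the summed CPM of complexes, by tissue and treatment. Ndufa6 had 433 CPM in the vehicle liver of animal 2627, against 512 CPM or more in the other vehicle livers. Ndufb3 had 242 CPM in the vehicle brain of animal 2573, against 286 CPM or more in the other vehicle brains.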

How the results depend on the processing

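In liver the members' median stayed above 0 under every setting tried, between 0.161 and 0.238 with single libraries left out, but the 4 calls did not hold in all. The count was 13 with DESeq2 and 8 with the run of animal numbers as a covariate. It was 0 without the sex covariate, within animals 2572 to 2578, within animals 2600 to 2630 and without 5 males. It was also 0 in females only and in males only, where the share of all genes called is not given. The single-sex counts are not read as results about the members. Leaving out 1 liver library gave 0 to 13 calls, with 13 without Mn 2600 (1.96% of all genes called higher), 8 without Mn 2602 (0.901%), 7 without vehicle 2572 (0.958%), 2 without vehicle 2573 (0.273%) and 0 without each of the others (0.0941% to 0.254%). For Cycs in liver the log2 ratio was -0.0138 within animals 2572 to 2578, -0.0501 in females, -0.0314 without 5 males, and -0.0216 to 0.107 with single libraries left out.

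In brain the median was 0.139 within animals 2572 to 2578, -0.260 with 32 calls within animals 2600 to 2630, and 0.195 without 7 Mn libraries. The difference between runs had 14 to 33 calls with single libraries left out. Within animals 2572 to 2578 the log2 ratio turned to 0.0756 for Cox8a, 0.0653 for Ndufa1, 0.0643 for Ndufb3 and 0.0127 for Uqcrh. Within animals 2600 to 2630 it turned to -0.109 for Sdha and -0.0417 for Sdhb. Without 7 Mn libraries it was 0.328 for Cox7c, 0.141 for Cox8a, 0.264 for Ndufa1, 0.141 for Ndufb3, 0.132 for Uqcrh and -0.0519 for Sdhb. In females only it was 0.0267 for Cox7c and 0.00165 for Cox8a.

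In small intestine the members with ratios near 1 changed sign. Cox8a was at -0.0172 with no scaling, -0.0153 without 4 males, -0.0958 within animals 2572 to 2578, -0.0306 in males, and -0.00700 to 0.0484 with single libraries left out. Sdha was at -0.0310, -0.0725 and -0.0349 in the same settings, -0.00990 with the run as a covariate, and -0.0294 to 0.0347 with single libraries left out. Cycs was at 0.0166 in females and -0.109 to 0.0215 with single libraries left out.

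Liver minus brain had 0 calls without 7 Mn brains, 1 without 5 male livers, 2 with no filter, 0 within animals 2572 to 2578 and 18 within animals 2600 to 2630. Small intestine minus brain had 6 calls within animals 2600 to 2630, for which the share of all genes is not given. Within animals 2572 to 2578 the differences of small intestine minus brain turned to -0.0496 for Cox7c, -0.0120 for Ndufa1 and -0.0242 for Ndufb3. Without 7 Mn brains they were -0.146 for Cox7c and -0.0560 for Ndufa1. Vehicle small intestine over vehicle liver had 43 calls with no scaling, 41 higher and 2 lower, against 51.9% and 20.6% of all genes. With the replicate block by animal the counts were 4 for liver minus brain, 0 for both other differences, and 29, 49 and 47 for the vehicle contrasts of small intestine over liver, small intestine over brain and liver over brain, and apart from Cox7b and Cox5b the block changed no call that the text names. The cause of these changes was not tested. The counts with no filter and with the block also stand without the share of all genes in the same fit. Like the 6 calls above, they are not read as results about the members. The members' standard errors in log2, which hold both counting error and the variation between animals, had a median of 0.08 in each tissue.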
